A study of Homo sapiens with 6 samples.

Results

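The genes described here were 101 protein-coding genes of the respiratory chain, out of 58735 genes in the count table. The rule that chose them used annotation only, and it was set with earlier results of these data known. All 13 protein-coding genes of the mitochondrial genome were taken, together with 88 nuclear genes whose names mark them as subunits of complex I (NDUFA, NDUFB, NDUFC, NDUFS and NDUFV genes), complex II (SDH genes), complex III (UQCR genes), complex IV (COX5, COX6, COX7 and COX8 genes) or complex V (ATP5 genes). By complex, the nuclear genes numbered 36 for complex I, 4 for complex II, 9 for complex III, 17 for complex IV (with NDUFA4 and NDUFA4L2, which are placed there) and 19 for complex V. The other nuclear genes were ATP5S, named after ATP synthase but not coding for a subunit, and 2 read-through genes. Placement was by name, so complex V includes ATP5IF1, which blocks the enzyme from running backwards. Complex IV likewise includes COX7A2L, which helps join complexes III and IV. The mitochondrial genes coded for 7 subunits of complex I, 1 of complex III, 3 of complex IV and 2 of complex V. The choice by name left out 5 genes that belong to the chain, COX4I1, COX4I2, NDUFAB1, CYC1 and CYCS, and these are given apart.

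OE33 cells, an epithelial line established from a human adenocarcinoma of the esophagus, were compared after a brief exposure that models acid and bile reflux and without it. The ABS group had 3 libraries of cells held for 20 min with 200 µM of a bile salt cocktail at pH 4.0 in medium without supplements, then left for 6 h in complete medium. The Ctrl group had 3 libraries of untreated cells. Both groups were the same line, grown in RPMI1640 with 10% serum, and polyadenylated RNA was sequenced in bulk. The labels call the replicates independent, and name no group given acid or bile salts alone.

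The respiratory chain sits in the inner mitochondrial membrane. Complexes I and II take electrons from NADH and succinate, complex III passes them to cytochrome c, complex IV passes them to oxygen, and complex V uses the resulting proton gradient to make ATP. All complexes except complex II are built from subunits of both genomes. The mitochondrial mRNAs are cut from long transcripts made by a dedicated RNA polymerase inside the organelle, whereas nuclear subunits have their own promoters, many with sites for the factors NRF1, GABP (an ETS factor) and YY1. Bile acids are known in other cell types to act on mitochondrial membranes, and transcript levels say nothing of membrane potential or respiration.

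Library totals lay between 22145676 and 25235686 counts. The epithelial markers EPCAM, KRT8, KRT18, KRT19 and CDH1 were present in every library, with summed levels of 18098 to 18985 CPM in ABS and 17272 to 20152 CPM in Ctrl (counts scaled to a common library size). Fibroblast markers summed to 2.59 to 3.72 CPM in ABS and 2.82 to 3.14 CPM in Ctrl, with COL1A2 and DCN at 0 counts, and immune markers to 1.05 to 1.81 CPM in ABS and 1.03 to 1.23 CPM in Ctrl, with PTPRC and CD3E at 0 counts. The replicate 3 libraries stood apart from the others. Over 7055 genes with a mean of at least 500 counts, the root mean square log2 difference was 0.12 between ABS replicates 1 and 2, 0.13 between Ctrl replicates 1 and 2, and 0.16 between ABS replicate 3 and Ctrl replicate 3. It lay between 0.20 and 0.26 for every other pair of libraries, so ABS replicate 3 was closer to Ctrl replicate 3 than to the other ABS libraries. Results are therefore given over all 6 libraries and also with replicate 3 apart.

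After ABS, no respiratory chain gene passed the test over all 6 libraries, and the estimated changes were small. Among 13768 genes tested with edgeR's quasi-likelihood test, 60 genes passed an adjusted p of 0.05, which is 0.436% of those tested, with 0.37% higher and 0.0654% lower. Of the 101 respiratory chain genes 90 had enough counts to be tested, 77 nuclear and 13 mitochondrial, and 0 of these 90 passed. DESeq2, which called 1.28% of all genes higher and 0.529% lower, and limma-voom also called 0 of them. At an unadjusted p under 0.05, 8 nuclear genes were lower, 0 were higher, and 0 mitochondrial mRNAs were on either side, while 4.14% of all tested genes were lower and 5.61% higher at that level. The 8 were NDUFA11, NDUFA3, NDUFA8 and NDUFS8 of complex I, UQCRQ of complex III, COX8A of complex IV, and ATP5F1E and ATP5IF1 of complex V.

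The size of the possible change was bounded for most of them. The 95% interval of the log2 fold change lay within 1.5-fold in either direction for 73 of the 77 tested nuclear genes and for 13 of 13 mitochondrial mRNAs, against 66.2% of all tested genes. The 4 exceptions were NDUFA11, NDUFV2, UQCRHL and ATP5ME, all with few reads. The signs leaned to lower values after ABS. The log2 fold change was negative for 64 of 77 nuclear genes, with a median of -0.10, and for 11 of 13 mitochondrial mRNAs, with a median of -0.09. Over all tested genes 51.0% were negative and the median was -0.0037. All members were measured in the same 6 libraries, so these counts describe the lists and carry no test.

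Summed over the members, the 13 mitochondrial mRNAs took 1.73%, 1.89% and 1.77% of all counts in ABS libraries 1, 2 and 3, against 2.10%, 2.17% and 1.64% in Ctrl libraries 1, 2 and 3. The mean was 1.80% ± 0.08 in ABS and 1.97% ± 0.29 in Ctrl (SD, n = 3 each). Ctrl replicates 1 and 2 lay above every ABS library, and Ctrl replicate 3 lay below every ABS library. The 88 nuclear genes took 0.722%, 0.694% and 0.737% in ABS libraries 1, 2 and 3, against 0.755%, 0.781% and 0.728% in Ctrl libraries 1, 2 and 3, so the groups overlapped there too. The 95% Wilson intervals of these shares reached at most 0.006 percentage points to either side, which covers counting error only, far less than the spread between libraries. In bulk RNA, fewer cells of a type and less RNA per cell cannot be told apart.

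**Figure D1:**
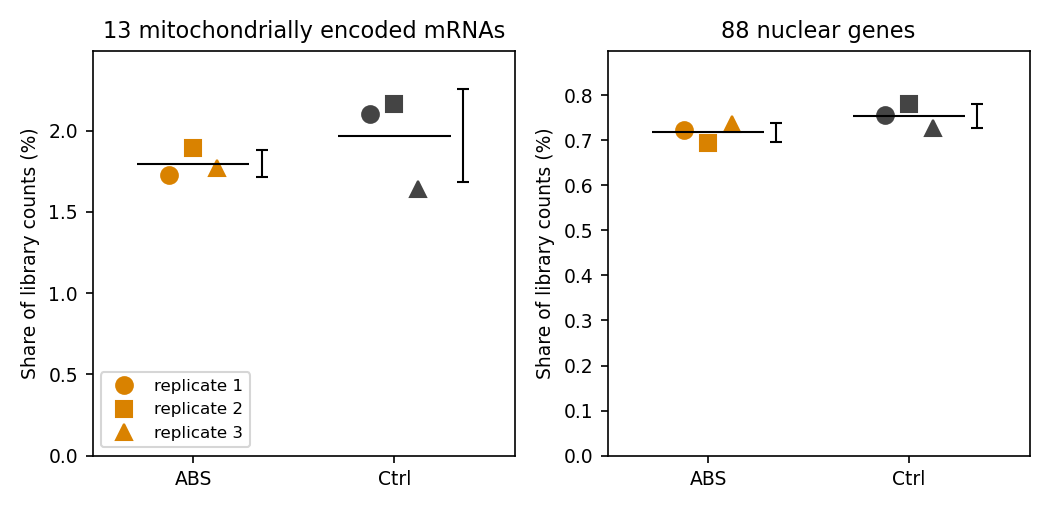
Share of all counts in each library (%, axis from 0) taken by the 13 mitochondrially encoded mRNAs (left) and the 88 nuclear genes (right), ABS left of Ctrl. Symbols mark replicates, horizontal lines the group means and the bars beside them ± 1 SD (n = 3); Ctrl replicate 3, at 1.64%, is the lowest point of the left panel.

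The balance between the genomes was also compared inside each library, where library scaling plays no part. The log2 ratio of summed mitochondrial to summed nuclear subunit mRNA, per length, was 2.51, 2.73 and 2.49 in ABS libraries 1, 2 and 3, against 2.72, 2.72 and 2.40 in Ctrl libraries 1, 2 and 3. The means were 2.58 ± 0.13 in ABS and 2.61 ± 0.19 in Ctrl (SD, n = 3 each), a difference of -0.03. It was -0.10 between replicates 1 and 2 and 0.09 in the replicate 3 pair. The ratio therefore moved by less than the spread between libraries, and in opposite directions in the 2 sets of replicates.

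The mitochondrial mRNAs ranked by level, per length, as follows. Levels are in TPM, a length-scaled share of all transcripts, computed from the deposited counts and gene lengths, as means ± SD over 3 libraries. MT-CO1, the catalytic core of complex IV, had 15305 ± 782 TPM in ABS and 16276 ± 1723 TPM in Ctrl, and MT-CO2, which takes electrons from cytochrome c, had 14647 ± 1129.6 TPM in ABS and 16433 ± 3020.1 TPM in Ctrl. MT-CO3, the other core subunit, had 11232 ± 340.5 TPM in ABS and 12525 ± 1891 TPM in Ctrl. Complex IV mRNAs thus filled the top of the order, with MT-CO1 and MT-CO2 not separated beyond their spread. MT-ATP6, the proton channel subunit of complex V, followed with 7859 ± 574 TPM in ABS and 8459.5 ± 1236 TPM in Ctrl.

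The complex I mRNAs came lower. MT-ND4, a proton-pumping subunit, had 4471 ± 342 TPM in ABS and 4743 ± 463 TPM in Ctrl, and MT-ND4L, on the same bicistronic mRNA, had 4393 ± 106 TPM in ABS and 4502 ± 725 TPM in Ctrl. MT-CYB, the mitochondrial subunit of complex III, had 2916 ± 164 TPM in ABS and 3026 ± 352 TPM in Ctrl. The next was MT-ND2 at 2807 ± 222 TPM in ABS and 2956 ± 425 TPM in Ctrl. These neighbours in each pair overlapped within their SD. Below them, MT-ND1 had 2214 ± 168 TPM in ABS and 2300.0 ± 207 TPM in Ctrl and MT-ND3 had 1954 ± 148 TPM in ABS and 2230.1 ± 412 TPM in Ctrl. MT-ND6, the one mRNA read from the light strand and lacking a poly(A) tail in human cells, had 1301 ± 71.2 TPM in ABS and 1361 ± 76.0 TPM in Ctrl. MT-ND5, the largest of the 13 mRNAs, had 1179 ± 62.2 TPM in ABS and 1121 ± 45.8 TPM in Ctrl. MT-ATP8 was the lowest at 426 ± 54.8 TPM in ABS and 412 ± 56.8 TPM in Ctrl, although it shares its mRNA with MT-ATP6.

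The reading frames of MT-ATP8 (chrM:8366-8572, plus strand, GRCh38) and MT-ATP6 (chrM:8527-9207, plus strand) overlap by 46 bases. The stretch is shown because reads in it can be assigned to either gene or to neither. The part of the overlap in the low level of MT-ATP8 was not tested. Capitals mark the start codon of MT-ATP6, and the last 3 bases are the stop codon of MT-ATP8.
MT-ATP8 and MT-ATP6 overlap, chrM:8527-8572: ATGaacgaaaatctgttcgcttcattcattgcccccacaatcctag
The overlap takes 46 of the 207 bases of MT-ATP8. MT-ND4L and MT-ND4 overlap by 7 bases in the same way. How reads in such overlaps were counted is not given in the sources used here, nor is the strand setting, so sense and antisense reads at MT-ND6 cannot be told apart. Nuclear copies of mitochondrial genes are a further limit. The table lists 394 of them, of which 3 were tested, MTATP6P1 with 7795 counts over 6 libraries, MTND2P28 with 5268 and MTCO1P12 with 1336. Of these 3, 0 passed over all 6 libraries, with a median log2 fold change of -0.08. Their median log2 difference was -0.18 between replicates 1 and 2 and 0.16 in the replicate 3 pair. In the edgeR fit to replicates 1 and 2, MTCO1P12 passed at -0.58 (adjusted p = 0.0161), where 5.33% of all genes were called lower.

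None of the 13 mitochondrial mRNAs separated the groups. MT-CO2 had 2690.2, 2960.1 and 2431 CPM in ABS libraries 1, 2 and 3, against 3336, 3571 and 2300.4 CPM in Ctrl libraries 1, 2 and 3. MT-CO3 had 2345, 2487 and 2266 CPM in ABS libraries 1, 2 and 3, against 2874, 3057 and 2105 CPM in Ctrl libraries 1, 2 and 3. In both, Ctrl replicates 1 and 2 were the highest libraries and Ctrl replicate 3 the lowest, so the groups overlapped. The log2 fold changes were -0.19 (SE 0.13, adjusted p = 0.720) for MT-CO2 and -0.18 (SE 0.11, adjusted p = 0.676) for MT-CO3, by edgeR. MT-CO1 had 6092, 6775 and 6152 CPM in ABS libraries 1, 2 and 3, against 7471, 7321 and 5717 CPM in Ctrl libraries 1, 2 and 3. Again Ctrl replicates 1 and 2 were the highest libraries and Ctrl replicate 3 the lowest, and the log2 fold change was -0.11 (SE 0.10, adjusted p = 0.787).

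MT-ATP6 had 1411, 1583 and 1323 CPM in ABS libraries 1, 2 and 3, against 1708, 1766 and 1240.5 CPM in Ctrl libraries 1, 2 and 3, and MT-ND4 had 1531, 1725 and 1706 CPM in ABS libraries 1, 2 and 3, against 1915, 1923 and 1502 CPM in Ctrl libraries 1, 2 and 3. Ctrl replicate 3 was the lowest library for both. MT-ND3, an early subunit of the membrane arm, had the most negative estimate, -0.21 (SE 0.13, adjusted p = 0.646), with 199, 183 and 164 CPM in ABS libraries 1, 2 and 3, against 188, 262 and 181 CPM in Ctrl libraries 1, 2 and 3. Its highest library was Ctrl replicate 2 and its lowest ABS replicate 3. MT-ND5 and MT-ATP8 had the only positive estimates, 0.05 (SE 0.08, adjusted p = 0.890) for MT-ND5 and 0.03 (SE 0.14, adjusted p = 0.971) for MT-ATP8. The other 7, MT-ND1, MT-ND2, MT-ND4, MT-ND4L, MT-ND6, MT-CYB and MT-ATP6, lay between -0.13 (MT-ATP6) and -0.06 (MT-ND4L), with adjusted p-values of at least 0.789 by edgeR.

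**Figure D2:**
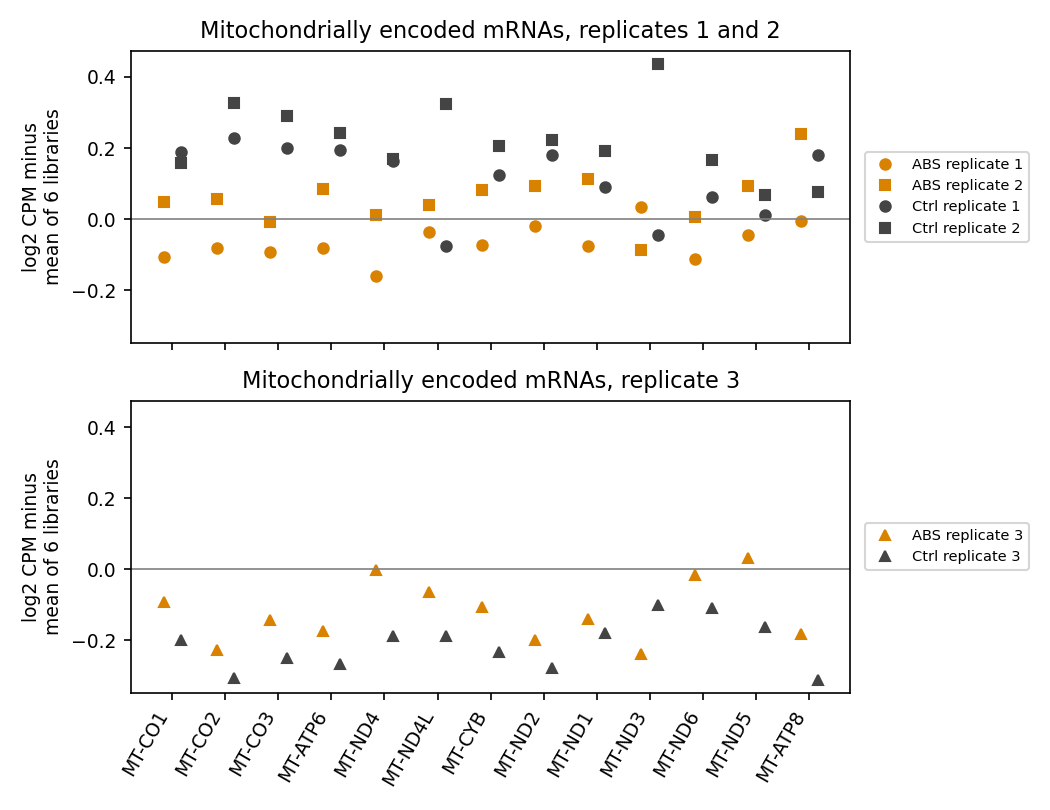
Level of each mitochondrially encoded mRNA in each library, as log2 CPM minus its mean over 6 libraries, in order of level per length; ABS (orange) is drawn left of Ctrl (dark), replicates 1 and 2 above and replicate 3 below. In replicates 1 and 2 most ABS points lie below the Ctrl points of the same gene, and in the replicate 3 pair ABS lies above Ctrl for 12 of 13 mRNAs, the exception being MT-ND3.

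Complex I has the most nuclear subunits, a set of core subunits that carry the flavin and iron-sulfur clusters and many accessory subunits around them. Of 36 nuclear genes 34 were tested and 0 passed; 29 were negative and 5 positive, with a median log2 fold change of -0.13. NDUFA8, an accessory subunit facing the intermembrane space (chr9:122144058-122159819, minus strand), had 30.5, 26.4 and 32.3 CPM in ABS libraries 1, 2 and 3, against 33.9, 38.7 and 36.1 CPM in Ctrl libraries 1, 2 and 3. Every ABS library lay below every Ctrl library. Its log2 fold change was -0.28 (SE 0.10, adjusted p = 0.339) by edgeR. NDUFA1, a small subunit of the membrane arm encoded on the X chromosome, had 15.7, 12.1 and 13.3 CPM in ABS libraries 1, 2 and 3, against 15.4, 16.6 and 17.3 CPM in Ctrl libraries 1, 2 and 3, with ABS replicate 1 among the Ctrl libraries and the other ABS libraries below them. Its log2 fold change was -0.26 (SE 0.13, adjusted p = 0.559).

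At the other end were subunits of the matrix arm. NDUFA5 had 46.5, 49.2 and 44.3 CPM in ABS libraries 1, 2 and 3, against 44.6, 44.6 and 42.1 CPM in Ctrl libraries 1, 2 and 3, with a log2 fold change of 0.09 (SE 0.08, adjusted p = 0.791); only ABS replicate 3 lay among the Ctrl libraries. NDUFS1, the largest iron-sulfur core subunit, had 189, 177 and 159.7 CPM in ABS libraries 1, 2 and 3, against 165, 169 and 166 CPM in Ctrl libraries 1, 2 and 3, with a log2 fold change of 0.07 (SE 0.08, adjusted p = 0.828). Here ABS replicate 3 was the lowest of all 6 libraries. NDUFA11, an accessory subunit of the membrane arm, had a mean just under 5 CPM, too low for the rule on named genes, and was picked after its values were seen. It had 3.95, 3.41 and 4.43 CPM in ABS libraries 1, 2 and 3, against 5.02, 6.05 and 6.54 CPM in Ctrl libraries 1, 2 and 3, every ABS library below every Ctrl library, and the most negative estimate of all members, -0.58 (SE 0.20, adjusted p = 0.304). Other complex I genes without overlap between the groups, also picked after seeing them, were NDUFA3, NDUFB11 and NDUFS8, with log2 fold changes of -0.25 for NDUFA3, -0.17 for NDUFB11 and -0.17 for NDUFS8.

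Complex II, succinate dehydrogenase, has no mitochondrially encoded subunit. All 4 genes were tested, 0 passed, and 3 of 4 estimates were positive, with a median of 0.01. SDHA, the flavoprotein, had 246, 255 and 239 CPM in ABS libraries 1, 2 and 3, against 251, 244 and 237 CPM in Ctrl libraries 1, 2 and 3, with a log2 fold change of 0.01 (SE 0.07, adjusted p = 0.972). SDHB, the iron-sulfur subunit, had 67.7, 70.8 and 67.7 CPM in ABS libraries 1, 2 and 3, against 71.5, 63.5 and 59.98 CPM in Ctrl libraries 1, 2 and 3, with a log2 fold change of 0.08 (SE 0.08, adjusted p = 0.827). The membrane anchors SDHC and SDHD had estimates of 0.02 (SE 0.08, adjusted p = 0.971) for SDHC and -0.05 (SE 0.10, adjusted p = 0.937) for SDHD. For each of the 4 the groups overlapped, and every interval lay within 1.5-fold.

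Complex III carried 9 tested nuclear genes, 0 of which passed; 6 were negative, and the median was -0.06. UQCRQ, a small subunit close to cytochrome b, had 100.04, 87.4 and 100.04 CPM in ABS libraries 1, 2 and 3, against 98.8, 120.4 and 113 CPM in Ctrl libraries 1, 2 and 3. Ctrl replicate 1 lay below ABS replicates 1 and 3, so the groups overlapped, and the log2 fold change was -0.21 (SE 0.09, adjusted p = 0.469). UQCR11 had 17.6, 17.8 and 22.6 CPM in ABS libraries 1, 2 and 3, against 22.5, 23.3 and 20.8 CPM in Ctrl libraries 1, 2 and 3, with a log2 fold change of -0.20 (SE 0.12, adjusted p = 0.663), with ABS replicates 1 and 2 at the bottom and ABS replicate 3 among the Ctrl libraries. The most positive estimates at a mean of at least 5 CPM were 0.06 (SE 0.09, adjusted p = 0.897) for UQCRC2, a core protein, and 0.04 (SE 0.09, adjusted p = 0.937) for UQCRFS1, the Rieske iron-sulfur protein. UQCRC1, the other core protein, had -0.05 (SE 0.07, adjusted p = 0.876). UQCRHL, a gene nearly identical to UQCRH, had 3.52 ± 0.533 CPM in ABS and 3.19 ± 0.295 CPM in Ctrl (SD, n = 3 each, as for every CPM mean here), and reads could be split between them.

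Complex IV holds several pairs of tissue forms. Of 17 nuclear genes 11 were tested, 0 passed, and 11 of 11 estimates were negative, with a median of -0.09. COX6A1 had 53.6, 40.6 and 50.5 CPM in ABS libraries 1, 2 and 3, against 51.4, 65.7 and 52.8 CPM in Ctrl libraries 1, 2 and 3, with a log2 fold change of -0.23 (SE 0.12, adjusted p = 0.585); Ctrl replicate 2 was the highest library. COX8A had 114, 96.2 and 98.8 CPM in ABS libraries 1, 2 and 3, against 115, 128 and 109.8 CPM in Ctrl libraries 1, 2 and 3, with a log2 fold change of -0.19 (SE 0.09, adjusted p = 0.501), with ABS replicate 1 above Ctrl replicate 3. COX6B1, which faces the intermembrane space, had 90.8, 84.6 and 109 CPM in ABS libraries 1, 2 and 3, against 98.6, 109 and 95.9 CPM in Ctrl libraries 1, 2 and 3, with a log2 fold change of -0.09 (SE 0.10, adjusted p = 0.833), with ABS replicate 3 and Ctrl replicate 2 at the top. NDUFA4 had 171, 167 and 175 CPM in ABS libraries 1, 2 and 3, against 179, 197 and 178 CPM in Ctrl libraries 1, 2 and 3, with every ABS library below every Ctrl library, and a log2 fold change of -0.11 (SE 0.07, adjusted p = 0.670).

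The other forms were near or at the floor, the level of 3 counts in a library being between 0.12 and 0.14 CPM before scaling. COX6A2, the muscle form of COX6A1, had 0 counts in all 6 libraries, as did COX7B2 and COX8C. COX7A1, the muscle form, had 0.363, 0.175 and 0.353 CPM in ABS libraries 1, 2 and 3, against 0.0425, 0.319 and 0.124 CPM in Ctrl libraries 1, 2 and 3, while COX7A2, its broadly expressed partner, had 127 ± 2.68 CPM in ABS and 135 ± 9.70 CPM in Ctrl, with a log2 fold change of -0.09 (SE 0.07, adjusted p = 0.767). COX6B2, a form of the testis, had 0.444, 0.175 and 0.196 CPM in ABS libraries 1, 2 and 3, against 0.170, 0.319 and 0.290 CPM in Ctrl libraries 1, 2 and 3. NDUFA4L2, a relative of NDUFA4 known from hypoxic cells, had 0.0807, 0 and 0 CPM in ABS libraries 1, 2 and 3, against 0.170, 0.0910 and 0.165 CPM in Ctrl libraries 1, 2 and 3. COX7A2L, which helps join complexes III and IV, had 68.9 ± 8.56 CPM in ABS and 71.9 ± 6.86 CPM in Ctrl, with a log2 fold change of -0.06 (SE 0.10, adjusted p = 0.913).

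Complex V had 18 tested nuclear genes of 19; 0 passed and 17 of 18 estimates were negative, with a median of -0.11. The exception was ATP5F1B, the catalytic beta subunit and the most abundant nuclear member, which had 978, 1002 and 896 CPM in ABS libraries 1, 2 and 3, against 974, 987 and 869 CPM in Ctrl libraries 1, 2 and 3, with a log2 fold change of 0.02 (SE 0.08, adjusted p = 0.958). ATP5F1E, the epsilon subunit of the central stalk, had 148, 136 and 155 CPM in ABS libraries 1, 2 and 3, against 152, 183 and 167 CPM in Ctrl libraries 1, 2 and 3, with a log2 fold change of -0.19 (SE 0.08, adjusted p = 0.485), with ABS replicate 3 above Ctrl replicate 1. ATP5IF1, which blocks the enzyme from running backwards, had 23.2, 22.3 and 24.7 CPM in ABS libraries 1, 2 and 3, against 29.03, 25.1 and 27.8 CPM in Ctrl libraries 1, 2 and 3, every ABS library below every Ctrl library, and a log2 fold change of -0.22 (SE 0.10, adjusted p = 0.506). The c-ring is encoded by 3 genes for the same mature protein. They had 67.2 ± 3.06 CPM in ABS and 69.6 ± 4.72 CPM in Ctrl for ATP5MC1, 135 ± 1.599 CPM in ABS and 148 ± 7.71 CPM in Ctrl for ATP5MC2 and 155 ± 6.07 CPM in ABS and 169 ± 17.0 CPM in Ctrl for ATP5MC3. Their log2 fold changes were -0.05 (SE 0.08, adjusted p = 0.908) for ATP5MC1, -0.13 (SE 0.07, adjusted p = 0.599) for ATP5MC2 and -0.13 (SE 0.08, adjusted p = 0.681) for ATP5MC3. Only ATP5MC2 had no overlap between groups. ATP5ME, a low member picked after its values were seen, also had none. It had 4.52, 3.80 and 4.43 CPM in ABS libraries 1, 2 and 3, against 5.82, 4.87 and 5.58 CPM in Ctrl libraries 1, 2 and 3, with a log2 fold change of -0.35 (SE 0.19, adjusted p = 0.593).

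The 11 genes that were not tested had 0 counts throughout (COX6A2, COX7B2, COX8C, ATP5MGL and the read-through genes ATP5MF-PTCD1 and NDUFC2-KCTD14) or few (NDUFA7, NDUFA13, COX6B2, COX7A1 and NDUFA4L2). NDUFA13, an accessory subunit of complex I, had 1.25, 0.831 and 0.353 CPM in ABS libraries 1, 2 and 3, against 0.298, 0.364 and 0.331 CPM in Ctrl libraries 1, 2 and 3. ABS replicates 1 and 2 were the highest, and ABS replicate 3 lay among the Ctrl libraries.

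In all, 9 tested nuclear genes had every ABS library below every Ctrl library, 11.7% of 77, and 1, ATP5S, had every ABS library above. For all tested genes the share was 6.95% below and 7.57% above. No mitochondrial mRNA had either. ATP5S had 23.6, 21.6 and 20.1 CPM in ABS libraries 1, 2 and 3, against 19.8, 19.3 and 18.4 CPM in Ctrl libraries 1, 2 and 3, with a log2 fold change of 0.18 (SE 0.11, adjusted p = 0.632), the most positive estimate of all members by edgeR.

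**Figure D3:**
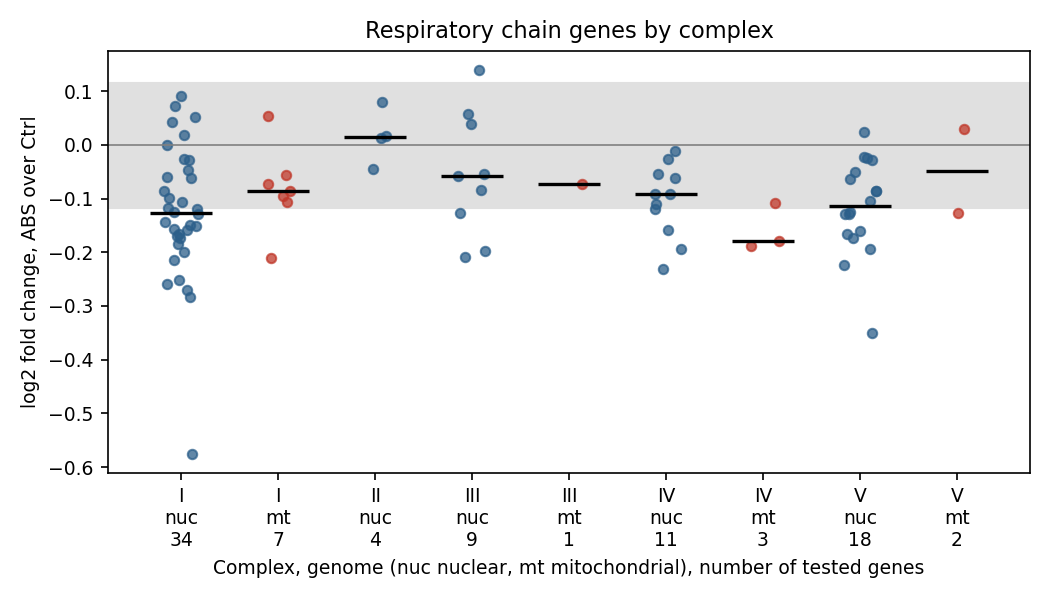
Log2 fold change, ABS over Ctrl, of each tested gene by complex and genome (blue nuclear, red mitochondrial), with medians as bars; ATP5S is not drawn. The grey band holds the middle 50% of all tested genes, -0.12 to 0.11, and most members lie inside it or just below, while NDUFA11 at -0.58 stands alone.

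With replicate 3 apart, the mitochondrial mRNAs gave differences of opposite sign. Between replicates 1 and 2 of each group, 13 of 13 mitochondrial mRNAs were lower in ABS, with a median log2 difference of -0.17, and 65 of 77 nuclear genes, with a median of -0.14. In the replicate 3 pair, with 1 library per group and so no test, 1 of 13 mitochondrial mRNAs was lower in ABS, with a median of 0.11, and 35 of 77 nuclear genes, with a median of 0.01. Over all tested genes the medians were -0.01 in replicates 1 and 2 and -0.0008 in the replicate 3 pair.

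A fit to the 4 libraries of replicates 1 and 2 called 25 members lower in ABS and 0 higher, against 5.33% of all genes called lower and 7.83% called higher in that fit. The 25 were 8 of 13 mitochondrial mRNAs and 17 of the 78 nuclear genes tested in that fit, which kept NDUFA13 too. Among the mitochondrial mRNAs were all 3 of complex IV, with log2 fold changes of -0.30 (edgeR adjusted p = 1.53e-05) for MT-CO3, -0.29 (edgeR adjusted p = 4.32e-05) for MT-CO2 and -0.20 (edgeR adjusted p = 0.00224) for MT-CO1. The others were MT-ND4 at -0.24 (edgeR adjusted p = 0.000768), MT-ATP6 at -0.21 (edgeR adjusted p = 0.00234), and MT-CYB, MT-ND2 and MT-ND6. The nuclear genes came from complex I (4 of 35 tested, NDUFA8, NDUFB4, NDUFB11, NDUFS8), complex III (3 of 9, UQCRH, UQCRQ, UQCR11), complex IV (3 of 11, COX5B, COX6B1, COX8A) and complex V (7 of 18, ATP5F1C, ATP5F1D, ATP5F1E, ATP5MC2, ATP5MC3, ATP5MF, ATP5MG). In complex II it was 0 of 4, too few genes for a contrast with the other complexes. The largest was ATP5MG, a membrane subunit of ATP synthase, at -0.44 (edgeR adjusted p = 0.0118). These changes were at most 1.36-fold in size, and the fit rests on 2 libraries a group. Replicate 3 was set apart because it differed in these same data. The p-values of this fit therefore cover only the spread within the closest pair of libraries of each group, at 0.12 in ABS and 0.13 in Ctrl by root mean square log2 difference.

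The difference between the sets of replicates was tested with an interaction term, which assumes that the lone replicate 3 libraries vary like the others. The estimate, ABS effect in the replicate 3 pair minus that in replicates 1 and 2, was positive for 13 of 13 mitochondrial mRNAs, with a median of 0.26, and 5 passed. They were MT-ND4 at 0.42 (edgeR adjusted p = 0.00169), MT-CO3 at 0.40 (edgeR adjusted p = 0.00136), MT-CO2 at 0.37 (edgeR adjusted p = 0.00598), MT-CO1 at 0.31 (edgeR adjusted p = 0.0200) and MT-ATP6 at 0.31 (edgeR adjusted p = 0.0350). Over all tested genes 0.581% passed with a positive difference and 1.8% with a negative one. Of the nuclear genes 63 of 77 were positive, with a median of 0.14, and 2 passed, ATP5MG at 0.87 (edgeR adjusted p = 0.0179) and COX6B1 at 0.42 (edgeR adjusted p = 0.0309). The term was added after replicate 3 was seen to stand apart, and its spread comes from replicates 1 and 2 alone, so these p-values rest on 1 library per group in the replicate 3 pair. Replicate number and whatever else sets the replicate 3 libraries aside cannot be told apart.

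Ctrl replicate 3 had the lower mitochondrial level of the pair. The median deviation of the 13 mitochondrial mRNAs from their mean over 6 libraries was -0.08, 0.06 and -0.14 in ABS libraries 1, 2 and 3, against 0.16, 0.21 and -0.20 in Ctrl libraries 1, 2 and 3. For the nuclear genes it was 0.0016, -0.11 and -0.02 in ABS libraries 1, 2 and 3, against 0.05, 0.13 and -0.03 in Ctrl libraries 1, 2 and 3. Without Ctrl replicate 3, MT-CO2 at -0.36 (adjusted p = 0.0251) and MT-CO3 at -0.33 (adjusted p = 0.0156) passed in edgeR, in a fit that called 0.829% of all genes lower and 2.27% higher. Ctrl replicate 3 was the lowest library for both genes, so leaving it out makes their estimates more negative by construction. These calls are therefore no separate support for a lower level after ABS. Every other fit without 1 library called 0 of 13 mitochondrial mRNAs.

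**Figure D4:**
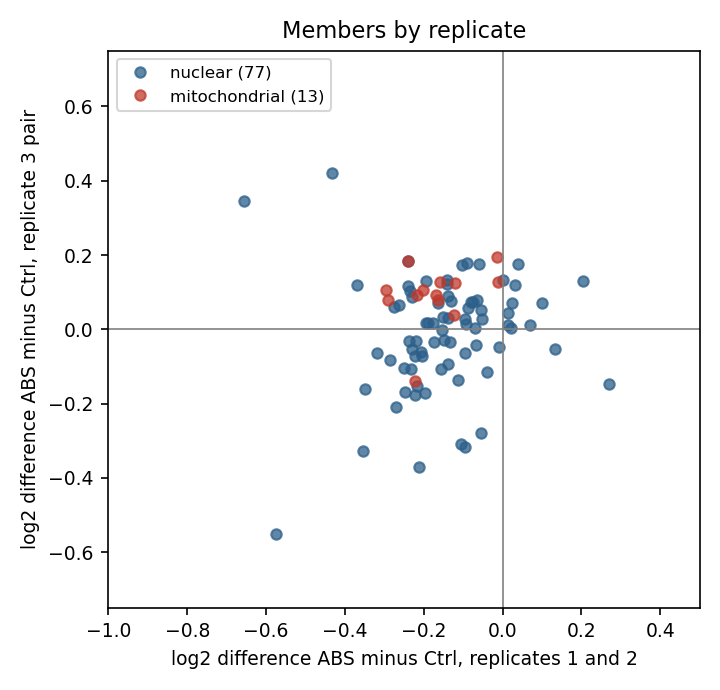
Log2 difference, ABS minus Ctrl, of each tested member between replicates 1 and 2 (horizontal) and in the replicate 3 pair (vertical); blue points are 77 nuclear genes and red points 13 mitochondrial mRNAs. All red points lie left of 0 and all but 1 above it, and ATP5MG stands in the upper left at -0.43 and 0.42.

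Levels per length differed widely between genomes and among subunits that are present in equal numbers in the assembled complex. Summed, the mitochondrial mRNAs made up 70704 ± 3437 TPM in ABS and 76344 ± 10084 TPM in Ctrl, and the nuclear genes 11836 ± 525 TPM in ABS and 12414 ± 272 TPM in Ctrl (SD, n = 3 each). The median gene had 2971 TPM among mitochondrial mRNAs and 92.7 TPM among tested nuclear genes. Of the nuclear genes only ATP5F1B at 1515 TPM, COX8A at 806 TPM and NDUFS5 at 645 TPM lay above the lowest mitochondrial mRNA, MT-ATP8 at 419 TPM. Within complex II the levels spanned 3.89-fold, between SDHC at 27.9 TPM and SDHA at 108 TPM. Among the 34 tested nuclear genes of complex I they spanned 734-fold, between NDUFV2 at 0.88 TPM and NDUFS5. These levels divide by the merged length of all annotated exons. It was 14160 bases for SDHC, with 507 coding, 548 for NDUFS5, with 318 coding, and 1542 for MT-CO1, all coding. By counts over 6 libraries SDHC, at 15218, lay above SDHB at 9550 and SDHD at 5565. The part of the length used in these spans and in the gap between genomes was not tested.

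Very low levels were found for a core subunit of complex I. NDUFV2, an iron-sulfur core subunit, had 92 counts over 6 libraries, NDUFA13 had 82 and NDUFA7 had 18. These genes share much of their coding sequence with other annotated genes. By GENCODE 29, 84.7% of the coding bases of NDUFV2 lie also in exons of the overlapping gene AP005263.1, 78.3% of those of NDUFA7 in exons of 2 other genes, with AC010323.1 sharing most, and 55.2% of those of NDUFA13 in exons of 2 other genes, with AC011448.1 sharing most. The 3 partners named had 0, 0 and 4 counts over the 6 libraries, so neither gene of each of these pairs was counted at a level usual for the complex. Over the nuclear subunit genes with any count, 18 had more than 30% of coding bases in exons of another gene and a median of 24.8 TPM, and the other 63 had a median of 101 TPM. Members off this pattern were found on both sides. COX8A, with 55.1% shared, had 806 TPM, and ATP5MF, with 44.6% shared, had 27786 counts over 6 libraries. NDUFA4L2, the lowest of the 63 at 0.11 TPM, shared 0%. The part of read assignment in the low levels was not tested.

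**Figure D5:**
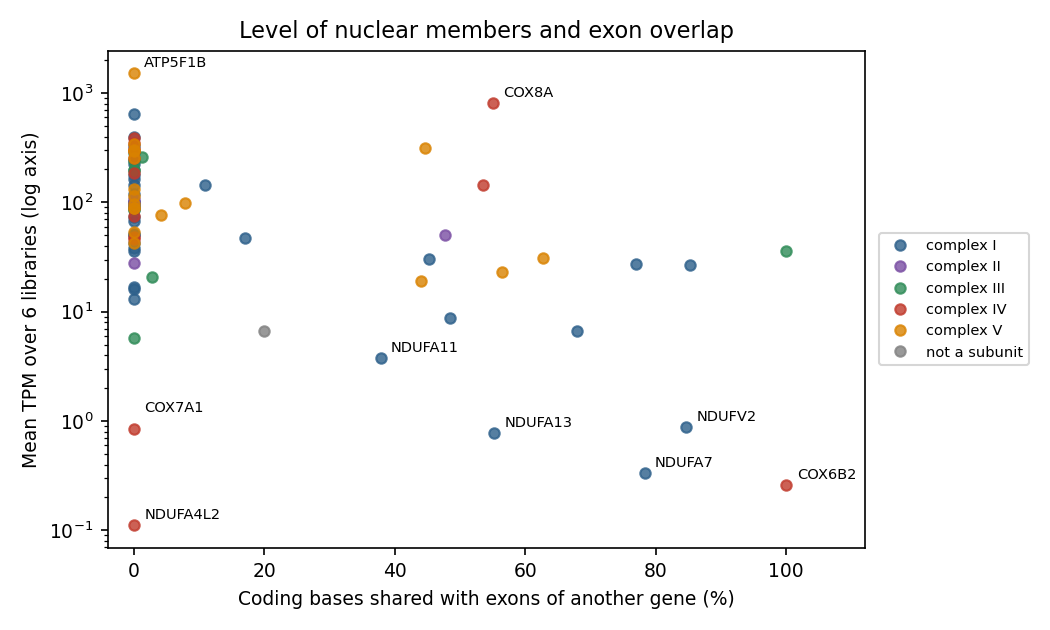
Mean level of each nuclear member with any count over 6 libraries (TPM, log axis) against the share of its coding bases that lie in exons of another annotated gene (%), coloured by complex. NDUFV2, NDUFA7, NDUFA13 and COX6B2 lie low at high overlap, NDUFA4L2 and COX7A1 lie low without overlap, and COX8A lies high at 55.1%.

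The nuclear members code for short proteins, and this moved with their estimates. Their median coding length was 435 bases, against 1419 bases over all tested genes with one. Among genes with at most 300 coding bases, 19 of 20 nuclear members were negative, with a median of -0.14, and so were 136 of all 203 tested genes, with a median of -0.07. Between 300 and 600 bases it was 30 of 33 members, with a median of -0.11, and 744 of 1220 genes, with a median of -0.04. Above 1500 bases 1 of 4 members and 45.6% of all genes were negative. Across the 77 nuclear members Spearman's rho between log2 fold change and coding length was 0.35, and Pearson's r with its log2 was 0.33. Over 11841 tested genes with a coding length they were 0.10 and 0.03. These values describe genes that share the same 6 libraries. The part of coding length in the lower values of the members was not tested.

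The promoters of nuclear subunit genes were searched because most of these genes had estimates of the same sign. RefSeq promoters (GRCh38.p14, 250 bases before to 50 after the start) were matched for 67 of the 88 nuclear genes. Both strands were searched for the NRF1 consensus (GCGC, any base, then TGCGC), for CCGGAAG (ETS factors such as GABP) and for AAGATGG (YY1); an ETS and a YY1 match can share the letters AAG where one runs into the other. An NRF1 match stood in 16 of 67 promoters, 23.9%, against 11.9% of 9422 promoters of tested protein-coding genes. An ETS match stood in 18, 26.9% against 19.9%, and a YY1 match in 16, 23.9% against 7.77%. At least 1 of the motifs was found in 38 promoters, 56.7% against 34.1%.

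The windows below run over 60 bases before to 30 after the start and show the 3 motifs in genes of different complexes, with the matches in capitals. NDUFA8 carries the most negative estimate among the complex I genes named by rule, ATP5F1C and COX5B were called in replicates 1 and 2, and UQCRC1 and ATP5PF hold a pair of motifs each.
NDUFA8, chr9:122159750-122159839, minus strand, NRF1: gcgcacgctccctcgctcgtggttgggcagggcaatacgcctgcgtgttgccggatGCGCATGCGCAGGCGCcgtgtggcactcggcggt
ATP5F1C, chr10:7788117-7788206, plus strand, NRF1: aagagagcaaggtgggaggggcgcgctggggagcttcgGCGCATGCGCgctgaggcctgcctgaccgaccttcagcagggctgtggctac
UQCRC1, chr3:48609617-48609706, minus strand, NRF1 and YY1: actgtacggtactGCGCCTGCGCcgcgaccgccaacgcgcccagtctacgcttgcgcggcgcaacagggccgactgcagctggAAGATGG
ATP5PF, chr21:25735025-25735114, minus strand, YY1 and ETS: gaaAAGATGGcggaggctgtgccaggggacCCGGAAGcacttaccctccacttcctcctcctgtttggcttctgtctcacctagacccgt
COX5B, chr2:97646002-97646091, plus strand, ETS: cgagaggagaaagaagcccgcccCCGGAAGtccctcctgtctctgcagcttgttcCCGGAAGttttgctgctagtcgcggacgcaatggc
In NDUFA8 overlapping NRF1 matches merge into 1 longer run of capitals, and COX5B holds 2 separate ETS matches. In UQCRC1 the YY1 match lies at the end of the window, past the start. The median log2 fold change was -0.12 over 15 tested genes with an NRF1 match and -0.11 over 45 without, -0.16 over 17 with an ETS match and -0.10 over 43 without, and -0.05 over 15 with a YY1 match and -0.13 over 45 without. A match is a run of letters, not a measured binding site.

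The chain also depends on genes that the choice by name did not take, and none of these passed over all 6 libraries with group as the only term and low counts filtered. Of the 5 left-out subunits and carriers, 4 were tested and 0 passed. CYC1, cytochrome c1 of complex III, had 369 ± 21.9 CPM in ABS and 395 ± 30.2 CPM in Ctrl (log2 fold change -0.10, SE 0.08, adjusted p = 0.754), and COX4I1, the largest nuclear subunit of complex IV, had 246 ± 15.7 CPM in ABS and 254 ± 14.5 CPM in Ctrl (log2 fold change -0.04, SE 0.08, adjusted p = 0.913). COX4I2, the lung form of that subunit, had 2 counts in all. Among 55 assembly factors, which build the complexes but are not part of them, 51 were tested and 0 passed; 34 were negative and the median was -0.05. By complex, the pair with the smallest p was NDUFAF3 at -0.18 (adjusted p = 0.501) and NDUFAF4 at 0.17 (adjusted p = 0.644) for complex I, SDHAF2 at -0.21 (adjusted p = 0.623) and SDHAF4 at -0.13 (adjusted p = 0.920) for complex II, and UQCC2 at -0.19 (adjusted p = 0.635) and BCS1L at -0.14 (adjusted p = 0.665) for complex III. For complex IV it was COA6 at -0.25 (adjusted p = 0.367) and COX15 at -0.18 (adjusted p = 0.585), and for complex V ATPAF2 at -0.16 (adjusted p = 0.771) and TMEM70 at -0.12 (adjusted p = 0.817), all as log2 fold changes.

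The machinery that makes the mitochondrial mRNAs and reads them gave 0 calls in that test as well. TFAM, which packs and activates mitochondrial DNA, had 138 ± 14.1 CPM in ABS and 136 ± 3.65 CPM in Ctrl (log2 fold change 0.01, SE 0.08, adjusted p = 0.979). POLRMT, the mitochondrial RNA polymerase, had 53.5 ± 10.2 CPM in ABS and 60.9 ± 4.35 CPM in Ctrl (log2 fold change -0.19, SE 0.12, adjusted p = 0.677). Of 12 tested genes for transcription and upkeep of mitochondrial DNA, MTERF1, which binds a termination site behind the ribosomal RNA genes, had the smallest p. It had 37.7, 40.0 and 35.2 CPM in ABS libraries 1, 2 and 3, against 29.6, 29.7 and 29.7 CPM in Ctrl libraries 1, 2 and 3, every ABS library above every Ctrl library, and a log2 fold change of 0.34 (SE 0.09, adjusted p = 0.136). It passed in edgeR over all 6 libraries with a term for replicate 3 (adjusted p = 0.0301, in a fit that called 2.24% of all genes higher and 1.14% lower) and in the fit to replicates 1 and 2 (adjusted p = 0.00604). POLRMT passed in the fit to replicates 1 and 2 alone (adjusted p = 0.0154). The next smallest belonged to MGME1 at -0.14 (adjusted p = 0.567), an exonuclease of mitochondrial DNA.

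Of 15 genes for processing and stability of mitochondrial RNA, 8 were positive, with a median of 0.06, and the smallest p-values belonged to FASTKD5 at 0.18 (adjusted p = 0.592), which acts in mRNA end processing, and LRPPRC at 0.12 (adjusted p = 0.646), which stabilises most mitochondrial mRNAs. Of 78 genes of the mitochondrial ribosome 77 were tested; 51 were negative, with a median of -0.04. MRPL23, of the large subunit, had 40.8 ± 4.68 CPM in ABS and 52.8 ± 10.8 CPM in Ctrl (log2 fold change -0.37, SE 0.13, adjusted p = 0.337), and MRPS15, of the small subunit, had 58.8 ± 3.56 CPM in ABS and 67.4 ± 5.81 CPM in Ctrl (log2 fold change -0.20, SE 0.09, adjusted p = 0.490). Both passed in the fit to replicates 1 and 2, with an adjusted p of 0.000347 for MRPL23 and 0.0245 for MRPS15, as did FASTKD5 at 0.0189, LRPPRC at 0.0131 and the assembly factor COX15 at 0.0330. MRPL23 also passed over all 6 libraries without a filter on low counts (adjusted p = 0.0273). All p-values here are edgeR's, adjusted over all genes.

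Regulators of mitochondrial biogenesis, 6 genes, gave 0 calls in the same test. PPARGC1B, a coactivator of respiratory genes, had 7.58, 5.68 and 8.01 CPM in ABS libraries 1, 2 and 3, against 11.9, 11.6 and 8.98 CPM in Ctrl libraries 1, 2 and 3, every ABS library below every Ctrl library, and a log2 fold change of -0.60 (SE 0.18, adjusted p = 0.194). It passed over all 6 libraries without a filter on low counts (adjusted p = 0.0335, in a fit that called 0.473% of all genes lower and 1.17% higher), without Ctrl replicate 3 (adjusted p = 0.0427) and in the fit to replicates 1 and 2 (adjusted p = 0.00172), by edgeR. Its relative PPARGC1A lay low, with 4.64, 3.80 and 4.40 CPM in ABS libraries 1, 2 and 3, against 3.61, 3.55 and 2.77 CPM in Ctrl libraries 1, 2 and 3, every ABS library above every Ctrl library, and a log2 fold change of 0.37 (SE 0.22, adjusted p = 0.632). Of the factors whose motifs were searched, NRF1 and GABPA are given here and YY1 is not. NRF1 had 22.0 ± 1.82 CPM in ABS and 22.8 ± 0.910 CPM in Ctrl (log2 fold change -0.05, SE 0.10, adjusted p = 0.930). GABPA had 35.5 ± 3.01 CPM in ABS and 31.0 ± 1.40 CPM in Ctrl (log2 fold change 0.20, SE 0.10, adjusted p = 0.555).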

How the data were processed

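Per the labels' protocols, oligo(dT)-selected RNA from 3 ABS and 3 Ctrl cultures of OE33 cells was sequenced. The submitters' processing notes name HISAT2 2.0.5, featureCounts 1.5.0-p3 and GRCh38, and the authors deposited raw counts per gene for each library, with gene lengths. Whether strand was used in counting, and how reads with several places or genes were handled, is not given in the sources used here. All 58735 gene identifiers matched GENCODE 29 with the same coordinates.

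Genes were kept by filterByExpr of edgeR 4.0.16 in R 4.3.3 (minimum count 10, minimum total 15). The main result was edgeR's quasi-likelihood F-test on 13768 genes over 6 libraries, with TMM scaling and group as the only term, and Benjamini-Hochberg adjustment over all genes at 0.05. Standard errors of log2 fold changes were derived from the F statistic. CPM values use TMM-scaled library sizes, and TPM values use the deposited length, the merged exon length. P-values of the main result set the difference between groups against the spread between these libraries, estimated with information shared across genes. DESeq2 1.42.0, limma-voom (limma 3.58.1), other scalings, no filter, a replicate block, a term for replicate 3, replicates 1 and 2 alone and 6 fits without 1 library each were alternatives, and an interaction with replicate 3 and medians without overlapping members were added after the data were seen.

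The members, the gene lists and the tests were chosen with earlier results of these data known. Named by rule were all mitochondrial mRNAs, per complex up to 2 nuclear genes with the highest and up to 2 with the lowest estimate at a mean of at least 5 CPM, listed isoforms and regulators whatever their values, and per pathway list the 2 genes with the smallest p. Other genes were picked after their values were seen. Medians over members carry no test.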

Additional observations from a re-analysis of the deposited data

How the results depend on the processing

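No estimate named in the report had opposite signs, each larger than its standard error, under any alternative, and none of the 101 members passed with RLE size factors, library size alone, scaling without mitochondrial genes, no filter on low counts, DESeq2, limma-voom, the replicate block or the term for replicate 3. Calls came with replicates 1 and 2 alone, all lower, for 17 of 78 nuclear genes and 8 of 13 mitochondrial mRNAs. That fit called 5.33% of all genes lower. Without Ctrl replicate 3, 2 of 13 mitochondrial mRNAs were lower, against 0.829% of all genes, and the library left out was the lowest of all for both. The 6 fits without 1 library gave 0 to 2 mitochondrial mRNAs lower. Without 1 library the median log2 fold change lay between -0.14 and -0.05 for nuclear genes and between -0.22 (without Ctrl replicate 3) and -0.02 (without Ctrl replicate 2) for mitochondrial mRNAs, and the difference in mitochondrial share between -0.34 and -0.07 percentage points. The log2 ratio of mitochondrial to nuclear mRNA differed by between -0.14 and 0.02 across the same fits, so its sign rests on single libraries. The cause of these shifts was not tested.

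Over all genes, calls were 31 higher and 4 lower with library size alone, 291 and 118 without a filter, 165 and 68 with DESeq2, 308 and 157 with a term for replicate 3, 1079 and 734 with replicates 1 and 2 alone, and between 11 and 321 higher and between 1 and 117 lower without 1 library, where 321 and 117 are without Ctrl replicate 3. In the pathway lists, replicates 1 and 2 alone gave 1 of 52 assembly factors and 5 of 77 mitochondrial ribosome genes lower. Of 15 RNA processing genes 3 were higher there, and of 6 biogenesis regulators 2 were lower. Of 12 genes of mitochondrial DNA transcription and upkeep 1 was higher and 1 lower. Over all genes, that fit called 7.83% higher and 5.33% lower. No filter gave 1 of 6 biogenesis regulators and 1 of 78 ribosome genes lower, against 0.473% of all genes. The term for replicate 3 gave 1 of 12 transcription genes higher, against 2.24% of all genes. The fits without 1 library gave 0 to 1 of 6 biogenesis regulators lower, the 1 without Ctrl replicate 3, against 0.829% of all genes.

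With the replicate number as a block, 244 genes were higher and 106 lower, and 0 members passed. The numbers were not taken as pairs. Deviations from the group means of same-numbered libraries correlated at 0.04, 0.03 and 0.17 for replicates 1, 2 and 3, and ABS replicate 2 correlated best with Ctrl replicate 1, at 0.09. For NDUFV2, with 92 counts, the 95% interval held changes of 1.5-fold either way, so a change of that size was not excluded.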
